A study of Homo sapiens with 6 samples.

Results

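The genes described here encode the proteins of the cytosolic ribosome. They were taken by name from 2 deposited tables of gene levels in U2OS cells, an established human osteosarcoma line, and include every gene name formed as RPL or RPS with a number (with the suffixes of known paralogs), RPLP0, RPLP1, RPLP2 and RPSA. The rule found 83 genes, each with 1 identifier, of the 17721 genes listed in either table. All 83 were listed in both tables. By their names alone, 51 were counted to the large subunit (RPL) and 32 to the small subunit (RPS). A name does not show that a gene's product is part of the finished particle.

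The ribosome reads mRNA on its small subunit and joins amino acids on its large subunit, and each subunit is a body of ribosomal RNA clothed with proteins. Most of these proteins are single-copy parts of the particle, made in matched amounts and destroyed when left unassembled. Their mRNAs are among the most abundant in growing cells, and they typically begin with a C followed by a run of pyrimidines, the 5′ terminal oligopyrimidine (TOP) tract, through which LARP1 and the mTOR kinase control their translation. Human cells also carry a few variant paralogs of ribosomal proteins and many processed pseudogenes copied from these mRNAs.

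Labels were given for 6 RNA samples of U2OS cells, whose protocol has a plasmid for a mutant of NSun2, an RNA cytosine methyltransferase, put into control (U6) and shDNMT1 cells, while the input samples carry the treatment label no. For cells with DNMT1 knocked down (shDNMT1) there were 2 samples of RNA co-immunoprecipitated with the NSun2 mutant and 1 input sample, and for shNC cells, labelled with genotype WT, there were likewise 2 co-immunoprecipitates and 1 input. DNMT1 copies cytosine methylation marks onto newly made DNA. The headers of the 2 tables named no sample and no group, so the tables are called the second and the first table, neither stands for a labelled condition, and no comparison of shDNMT1 with shNC cells or of immunoprecipitate with input was made. Each gene had 1 value per table and no replicate, so no test was possible and every difference below is between these tables only.

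Values are in FPKM, fragments per kilobase of transcript scaled to sequencing depth, as the authors deposited them. The number of fragments behind a value is unknown. Because the labelled samples include immunoprecipitates, a value need not be the amount of an mRNA in the cells. Genes called abundant below are those listed at a high FPKM. The FPKM of all genes summed to 541559 over 16824 genes in the second table and to 578013 over 15167 genes in the first. DNMT1 was listed at 9.36 FPKM in the second table and 23.3 FPKM in the first, and NSUN2 at 1147 FPKM in the second and 559 FPKM in the first, and no group was assigned from these values. Of 10 osteoblast and mesenchymal markers, 6 were listed in the second table and 3 in the first. RUNX2 (0.806 FPKM), BGLAP (0.144 FPKM) and SPARC (0.0328 FPKM) were listed in the second table only, each below 1 FPKM. The mesenchymal filament VIM was listed at 407 FPKM in the second and 262 FPKM in the first. The alkaline phosphatase ALPL had 38.0 FPKM in the second and 78.4 FPKM in the first, and the collagen COL1A1 had 0.451 FPKM in the second and 3.04 FPKM in the first, so both were lower in the second table, while SP7, COL1A2, SPP1 and IBSP were listed in neither table. Of 7 markers of other cell types, only the epithelial genes EPCAM (0.555 FPKM in the second and 2.20 FPKM in the first) and CDH1 (0.392 FPKM in the second and 8.42 FPKM in the first) were listed.

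The TOP tract is printed from the RefSeq annotation (GRCh38.p14), because it is the shared sequence feature by which these genes are known. Each line below gives 30 bases, of which 10 lie before the annotated transcript start and 20 from it onward, 5′ to 3′ on the strand of the gene. Capitals mark the tract, defined here as a C at the annotated start followed by at least 4 further C or T bases. Where RefSeq gives several starts for a gene, the start with the longest tract is shown. The first set holds abundant members, RPS3A, and the paralogs RPL22 and RPL22L1.
RPL7A, chr9:133348208-133348237, plus strand: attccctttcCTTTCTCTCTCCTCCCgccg
RPS3, chr11:75399508-75399537, plus strand: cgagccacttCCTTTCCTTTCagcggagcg
RPLP0, chr12:120201092-120201121, minus strand: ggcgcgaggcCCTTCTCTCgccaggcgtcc
RPL10, chrX:154398367-154398396, plus strand: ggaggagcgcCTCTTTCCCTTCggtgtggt
RPSA, chr3:39406710-39406739, plus strand: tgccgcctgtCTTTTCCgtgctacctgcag
RPL39, chrX:119791611-119791640, minus strand: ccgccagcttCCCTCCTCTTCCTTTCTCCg
RPS3A, chr4:151099618-151099647, plus strand: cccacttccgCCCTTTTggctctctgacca
RPL22, chr1:6199576-6199605, minus strand: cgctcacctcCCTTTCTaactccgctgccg
RPL22L1, chr3:170870176-170870205, minus strand: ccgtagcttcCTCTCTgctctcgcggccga

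The second set shows members without such a tract at an annotated start, among them RPL4, which stood highest in the second table relative to the first, and 4 of the variant paralogs.
RPL4, chr15:66504836-66504865, minus strand: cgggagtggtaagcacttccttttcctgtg
RPL10A, chr6:35468391-35468420, plus strand: aagacatgctagtctcttttccggttagcg
RPS4X, chrX:72277229-72277258, minus strand: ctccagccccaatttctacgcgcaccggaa
RPL7L1, chr6:42879606-42879635, plus strand: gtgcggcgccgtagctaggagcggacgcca
RPL26L1, chr5:172958719-172958748, plus strand: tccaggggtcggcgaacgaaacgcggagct
RPS27L, chr15:63157458-63157487, minus strand: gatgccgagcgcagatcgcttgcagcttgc
RPL36AL, chr14:49620607-49620636, minus strand: tcttccctttcctgttaggcgagagctgcg

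Of the 67 members with a start in the RefSeq table used here, 47 had the tract, or 70.1%. Over all 27305 genes in that table the share was 5.14%, and over the 338 other genes with a mean of at least 100 FPKM it was 15.4%. Counted by annotated start instead of by gene, the share was 56.6% of 83 starts for the members and 4.07% of 35116 starts for all genes. The tract had a median length of 8 bases among members that had one. It was longest in RPL39, at 19 bases, and RPL7A, at 16 bases. RPL39 lines the tunnel through which the new protein leaves, and RPL7A sits on the surface of the large subunit. Of 5 variant paralogs with an entry, RPL22L1 had the tract. The starts of RPL4 and RPL10A began with A, and both windows hold a run of C and T a few bases further on. The letters of one annotated start do not say where transcription began in these cells. Of 69 mitochondrial ribosomal protein genes with an entry, 6 had the tract.

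Ribosomal protein mRNAs stood near the top of both tables. Of all FPKM, the 83 genes held 8.0% in the second table and 7.56% in the first, with 4.54% in the second and 4.31% in the first for the large subunit and 3.46% in the second and 3.26% in the first for the small subunit. Their summed FPKM was nevertheless slightly lower in the second table, at 43303 in the second and 43717.5 in the first. The sum was also lower there for the large subunit (24569.7 in the second and 24899.5 in the first) and the small subunit (18733.3 in the second and 18818 in the first). The shares were higher because the total over all genes was smaller in the second table (541559 in the second and 578013 in the first). Among the 100 highest genes, 30 in the second table and 26 in the first were ribosomal protein genes. Leaving out the 6 variant paralogs with an L in the name, described below, the median of the remaining 77 was 462 FPKM in the second table and 397 FPKM in the first. Of these 77, 75 in the second table and 74 in the first reached 100 FPKM, and 10 reached 1000 FPKM in both.

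The order of the members was nearly the same in both tables. Across the 83 genes, which are not independent replicates and share the same 2 tables, the log2 levels in both tables correlated with Pearson's r at 0.989 and Spearman's rho at 0.982. Most ribosomal proteins are present in equal numbers in the particle, whereas their mRNAs were listed at unequal levels: among the 77 genes, the highest stood 49.5-fold above the lowest in the second table and 64.0-fold in the first. FPKM is scaled by transcript length, and ribosomal protein mRNAs are short, so the length used upstream weighs on these levels; its part was not tested.

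RPS2, a protein at the mRNA entry channel of the small subunit, was the most abundant member at 2246 FPKM in the second table and 2987 FPKM in the first (chromosome 16, 1962052 to 1964860, hg38; ENSG00000140988). RPL7A followed at 1947 FPKM in the second and 1987 FPKM in the first. RPS3, which also lines the mRNA entry channel and has a role in DNA repair, was listed at 1567 FPKM in the second and 1811 FPKM in the first. These 3 genes were lower in the second table. RPLP0, the base of the stalk that recruits elongation factors, was listed at 1717 FPKM in the second and 1649 FPKM in the first, and RPL10, a late-joining protein near the peptidyl transferase centre, at 1590 FPKM in the second and 1601 FPKM in the first. The log2 ratio of RPLP0 was 0.06 and that of RPL10 was -0.01, both close to 0.

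The lowest members outside the variant paralogs were RPS28, at 45.4 FPKM in the second table and 46.7 FPKM in the first, and RPL22, at 47.8 FPKM in the second and 52.2 FPKM in the first. RPL7, at 123 FPKM in the second and 95.2 FPKM in the first, RPS24, at 106 FPKM in the second and 115 FPKM in the first, and RPL6, at 126 FPKM in the second and 107 FPKM in the first, came next. RPS28 is one of the smallest proteins of the small subunit, and RPL22 is a large subunit protein that mouse cells can replace with its paralog. RPL41, the smallest ribosomal protein, was nevertheless listed at 832 FPKM in the second and 869 FPKM in the first.

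**Figure D1:**
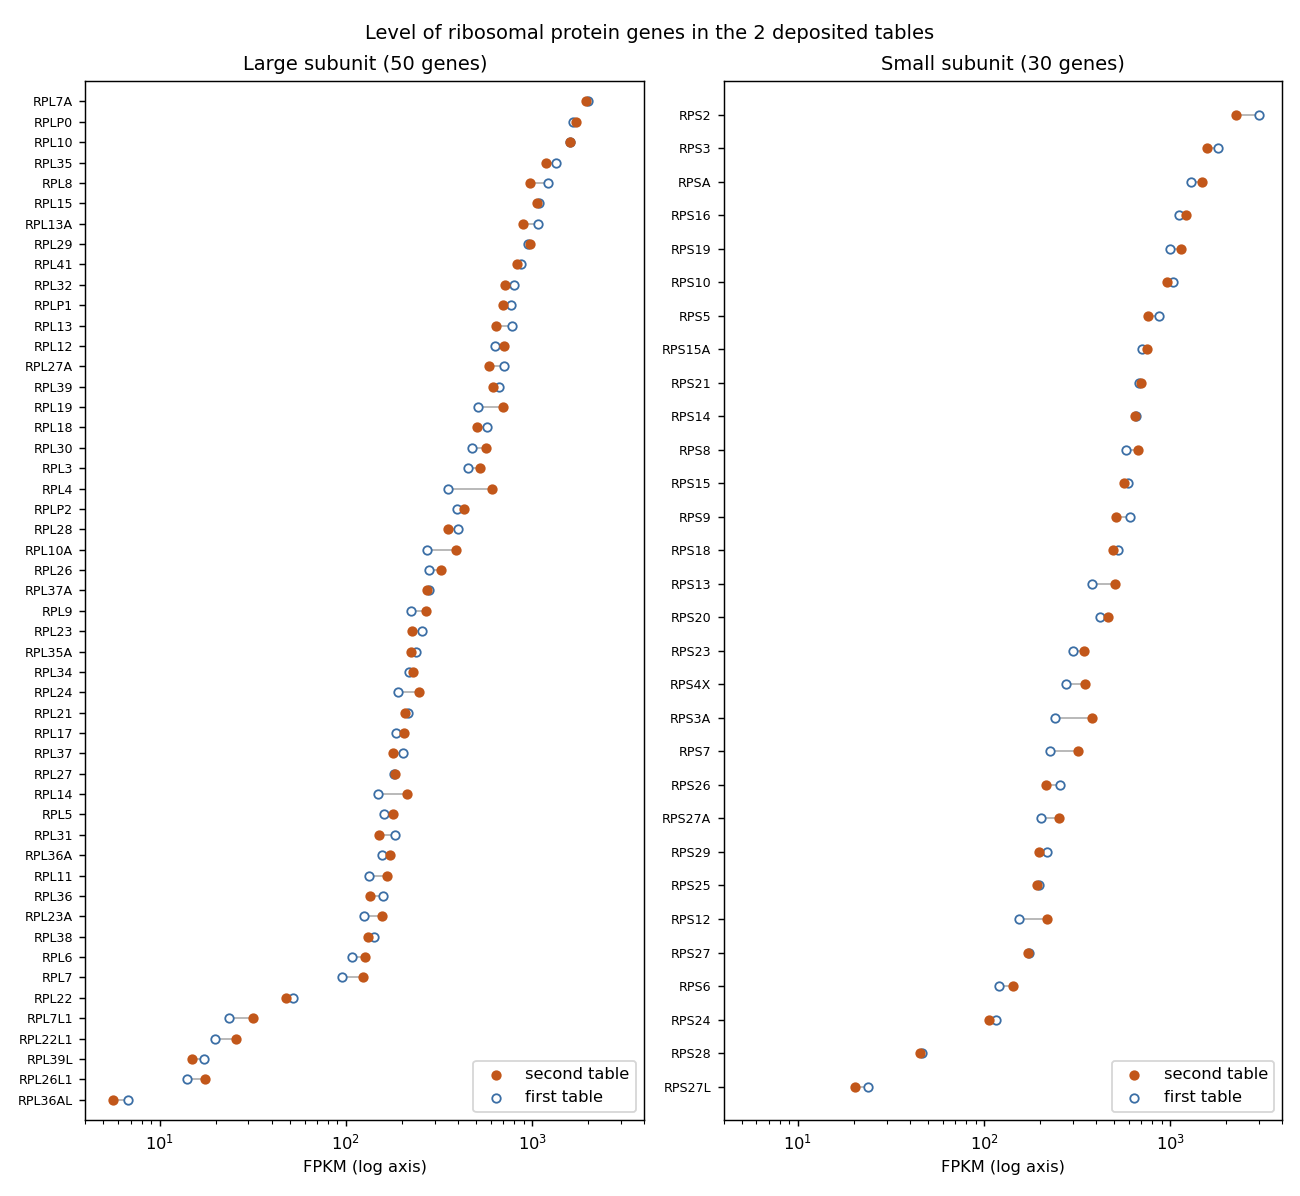
FPKM (log axis) of 80 of the 83 ribosomal protein genes, large subunit at left and small subunit at right, ordered by mean level; filled points are the second table and open points the first. Most pairs of points nearly coincide, the 6 variant paralogs and RPS28 and RPL22 lie at the bottom, and RPL4 shows the widest gap among abundant genes (611 FPKM in the second and 354 FPKM in the first).

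Differences between the tables were small and ran both ways. On the log2((second + 1)/(first + 1)) scale, 42 of the 83 members were higher in the second table and 41 lower, with a median log2 ratio of 0.01, which became -0.08 once the all-gene median was subtracted. Of the 11416 genes in both tables with a mean of at least 1 FPKM, 57.5% were higher, with a median of 0.09. The interquartile range ran from -0.16 to 0.24 for the members and from -0.23 to 0.40 for those 11416 genes. Among the 518 other genes with a mean of at least 100 FPKM, 40.5% were higher. Their median was -0.08 and the interquartile range ran from -0.36 to 0.17. At 1.5-fold or more, 2 members were higher and 0 lower in the second table, where 13.8% of the 11416 genes were higher and 7.84% lower. Among all 593 genes with a mean of at least 100 FPKM, members included, 4.05% were higher and 6.58% lower. No member differed by 2-fold, as 2.4% of the 11416 genes did upward and 1.82% downward.

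**Figure D2:**
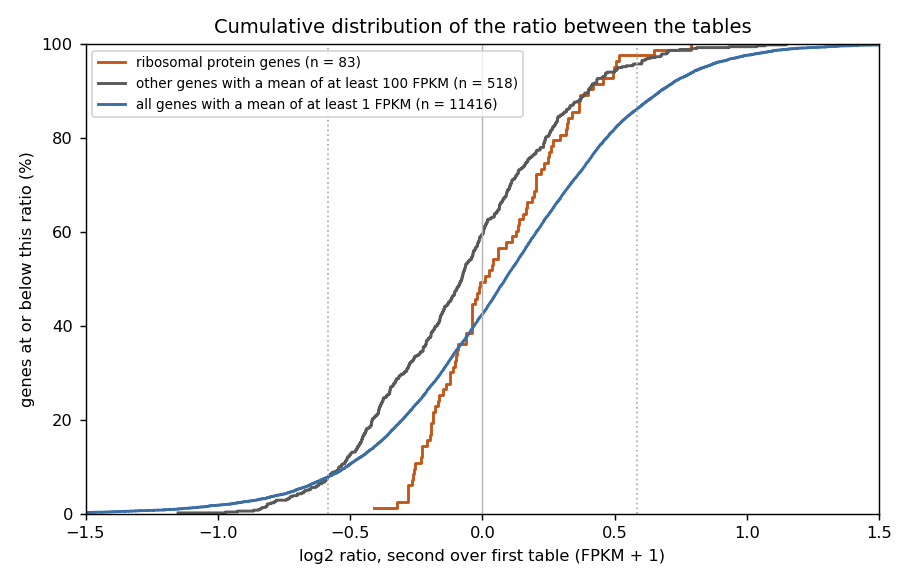
Cumulative share of genes (percent) at or below each log2 ratio of the second over the first table, for the 83 ribosomal protein genes, 518 other genes with a mean of at least 100 FPKM and 11416 genes with a mean of at least 1 FPKM; dotted lines mark 1.5-fold. The members' curve is the steepest, runs from -0.41 to 0.79, and crosses 50% close to 0.

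The subunits covered much the same range. The median log2 ratio was -0.01 over 51 large subunit genes, of which 25 were higher and 26 lower, and 0.03 over 32 small subunit genes, of which 17 were higher and 15 lower, and both medians were below 0 (-0.10 and -0.05) after that subtraction. Ratios ran from -0.32 to 0.79 in the large subunit and from -0.41 to 0.65 in the small subunit, so the ranges overlapped over most of their length.

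The 2 members past 1.5-fold were RPL4 and RPS3A. RPL4 reaches into the exit tunnel of the large subunit with a long loop. It was listed at 611 FPKM in the second table and 354 FPKM in the first, a log2 ratio of 0.79 (chromosome 15, 66498015 to 66565979; ENSG00000174444). Its locus in the tables also held ZWILCH, a kinetochore gene listed at 4.28 FPKM in the second and 5.39 FPKM in the first. RPS3A, a protein of the small subunit platform, was listed at 378 FPKM in the second and 241 FPKM in the first (log2 ratio 0.65; chromosome 4, 151099573 to 151325632; ENSG00000145425). It shared its locus with 2 identifiers, among them SH3D19 at 3.14 FPKM in the second and 3.01 FPKM in the first. Once the all-gene median was subtracted from every ratio, RPS3A had 0.56, under 1.5-fold.

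Just under that limit stood 4 genes that shared their locus with no other gene. RPL10A, part of the mobile L1 stalk by which spent tRNA leaves, was listed at 390 FPKM in the second table and 273 FPKM in the first, a log2 ratio of 0.51. RPL14, a large subunit surface protein, had 212 FPKM in the second and 149 FPKM in the first, a log2 ratio of 0.51. RPS12, which sits on the beak of the small subunit, had 217 FPKM in the second and 153 FPKM in the first, a log2 ratio of 0.50. RPS7, a gene mutated in some patients with Diamond-Blackfan anaemia, had 319 FPKM in the second and 226 FPKM in the first, a log2 ratio of 0.49.

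At the other end, RPS2 had the lowest log2 ratio, -0.41. RPL8, a protein of the peptidyl transferase centre, was listed at 973 FPKM in the second table and 1219 FPKM in the first, a log2 ratio of -0.32. RPL31, at the tunnel exit, had 151 FPKM in the second and 183 FPKM in the first (-0.28), and RPL13 had 639 FPKM in the second and 776 FPKM in the first (-0.28). Each of these 4 genes was lower in the second table by less than 1.5-fold. RPL31 shared its locus with 6 other identifiers and RPS2 with 1, while RPL8 and RPL13 were alone at theirs.

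Functional neighbours within the ribosome were spread over the same range. The stalk proteins RPLP1 and RPLP2 bind elongation factors. RPLP1 had 698 FPKM in the second table and 769 FPKM in the first, a log2 ratio of -0.14, and RPLP2 had 429 FPKM in the second and 397 FPKM in the first, a log2 ratio of 0.11. RPL5 and RPL11 bind 5S ribosomal RNA and, when free of the ribosome, inhibit the ubiquitin ligase MDM2. RPL5 had 180 FPKM in the second table and 160 FPKM in the first, and RPL11 had 167 FPKM in the second and 133 FPKM in the first, log2 ratios of 0.17 and 0.32, so both were slightly higher in the second. Of all genes, 57.5% were higher, and of those with a mean of at least 100 FPKM, 42.0% were. Of 8 proteins of the exit tunnel and its rim, 5 were higher and 3 lower, with a median of 0.17. Besides RPL4 they included RPL19 (701 FPKM in the second and 511 FPKM in the first, 0.46), RPL23A, a docking site of the signal recognition particle (156 FPKM in the second and 125 FPKM in the first, 0.31), RPL35 (1191 FPKM in the second and 1338 FPKM in the first, -0.17) and RPL39 (615 FPKM in the second and 665 FPKM in the first, -0.11).

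Of 4 proteins of the decoding site and mRNA channel, RPS23, which helps the small subunit to read codons accurately, was higher in the second table, at 345 FPKM in the second and 300 FPKM in the first. RPS2, RPS3 and RPS15 (565 FPKM in the second and 590 FPKM in the first) were lower. Over all genes 57.5% were higher, and over those with a mean of at least 100 FPKM 42.0% were. RPS6, the classical substrate of the S6 kinases, had 143 FPKM in the second and 120 FPKM in the first and a log2 ratio of 0.26. RPSA, also known as the laminin receptor precursor, had 1476 FPKM in the second and 1291 FPKM in the first, a log2 ratio of 0.19. RPS14, whose loss contributes to the anaemia of the 5q- syndrome, had 645 FPKM in the second and 654 FPKM in the first, and RPL38, needed for the translation of Hox mRNAs in mouse embryos, had 132 FPKM in the second and 141 FPKM in the first. RPS14 and RPL38 were thus nearly level between the tables.

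Genes haploinsufficient in Diamond-Blackfan anaemia, an inherited red cell aplasia, were divided like all 83 members, of which 42 were higher and 41 lower. The share higher was 57.5% over all genes and 42.0% over those with a mean of at least 100 FPKM. Of the 10 Diamond-Blackfan genes, 5 were higher and 5 lower, with a median log2 ratio of 0.06. RPS19, the most frequently mutated of them, was listed at 1135 FPKM in the second table and 995 FPKM in the first, a log2 ratio of 0.19. RPS26, another of them, had 214 FPKM in the second and 257 FPKM in the first, a log2 ratio of -0.26.

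Some ribosomal proteins are made as fusions to ubiquitin or a ubiquitin-like protein, which is cut off after translation. RPS27A, a fusion to ubiquitin, was listed at 252 FPKM in the second table and 201 FPKM in the first, a log2 ratio of 0.32. FAU, a fusion to a ubiquitin-like protein outside the naming rule, had 307 FPKM in the second and 323 FPKM in the first, a log2 ratio of -0.07. RACK1, a scaffold protein on the head of the small subunit and also outside the rule, had 957 FPKM in the second and 899 FPKM in the first (0.09). These genes lay within the range of the members.

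Each variant paralog was lower than its partner in both tables, by amounts that differed between pairs. RPL22L1 came closest: at 25.7 FPKM in the second table and 19.8 FPKM in the first, it made up 35.0% in the second and 27.5% in the first of the sum of RPL22 and RPL22L1. Its log2 ratio was 0.37 and that of RPL22 was -0.12, on opposite sides of 0. RPL7L1, a gene needed by early mouse embryos, was listed at 31.7 FPKM in the second and 23.5 FPKM in the first, 20.5% in the second and 19.8% in the first of its pair with RPL7. Both RPL7L1 and RPL7 were higher in the second table, with log2 ratios of 0.42 and 0.37.

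RPS27L was listed at 20.2 FPKM in the second table and 23.8 FPKM in the first, 10.5% in the second and 12.1% in the first of its pair with RPS27, which had 172 FPKM in the second and 174 FPKM in the first. RPL26L1 had 17.4 FPKM in the second and 14.0 FPKM in the first, or 5.11% in the second and 4.75% in the first of its pair with RPL26, at 324 FPKM in the second and 281 FPKM in the first. RPL39L, a paralog used in mouse male germ cells, had 15.0 FPKM in the second and 17.3 FPKM in the first, 2.38% in the second and 2.54% in the first of its pair. RPL36AL had 5.60 FPKM in the second and 6.73 FPKM in the first, 3.13% in the second and 4.14% in the first of its pair with RPL36A, at 174 FPKM in the second and 156 FPKM in the first. Fragments that match both genes of a pair could be divided between them upstream, which was not tested. RefSeq holds 87 symbols that fit the rule, and the 4 listed in neither table include the muscle paralog RPL3L and the testis paralog RPL10L. RPS4X, the X-linked gene of a small subunit protein, was listed at 349 FPKM in the second and 276 FPKM in the first (log2 ratio 0.34).

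Names such as RPL13 and RPL13A denote different proteins, not paralogs. RPL13A was listed at 895 FPKM in the second table and 1075 FPKM in the first, a log2 ratio of -0.26 close to that of RPL13. RPL18 had 506 FPKM in the second and 573 FPKM in the first, a log2 ratio of -0.18. RPL23 had 226 FPKM in the second and 258 FPKM in the first, a log2 ratio of -0.19, where RPL23A was higher in the second table. RPL35A had 224 FPKM in the second and 239 FPKM in the first, a log2 ratio of -0.09. Names alike thus came with ratios on either side of 0. RPL27 had 183 FPKM in the second table and 181 FPKM in the first, against 587 FPKM in the second and 706 FPKM in the first for RPL27A. RPL37 had 178 FPKM in the second and 203 FPKM in the first, and RPL37A 271 FPKM in the second and 279 FPKM in the first. RPS15A, at 748 FPKM in the second and 704 FPKM in the first, was slightly higher in the second table where RPS15 was slightly lower.

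Pseudogenes may bear on these values, since a fragment of an abundant mRNA can also match its copies, which was not tested. The tables listed 106 pseudogenes named after 39 of the members: 55 in both tables, 38 in the second only and 13 in the first only. Together they reached 859 FPKM in the second table and 1012 FPKM in the first, or 1.94% in the second and 2.26% in the first of the FPKM of members and pseudogenes. Of this, RPS2P5 alone had 328 FPKM in the second and 522 FPKM in the first and RPL9P9 had 276 FPKM in the second and 235 FPKM in the first. RPL9P9 was thus listed as high as RPL9 itself, at 270 FPKM in the second and 224 FPKM in the first.

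Of 41 pseudogenes in both tables with a mean of at least 1 FPKM, 20 were higher and 21 lower in the second. Of all genes at that level, 57.5% were higher. For 29 of the 41 pseudogenes the ratio lay on the same side of 0 as that of the parent gene. How many would do so without any link to the parent was not worked out. The log2 ratios of RPS2P5 and RPS2 were -0.67 and -0.41, and those of RPL9P9 and RPL9 0.23 and 0.27. RPL7AP6 (0.13) and RPLP0P6 (-0.21) differed in sign from RPL7A (-0.03) and RPLP0 (0.06). Across the 41, which share 23 parents and the same tables, Pearson's r between the ratios was 0.416 and Spearman's rho 0.493. With the pseudogenes added to their parents, 42 members were higher and 41 lower, as without them.

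**Figure D3:**
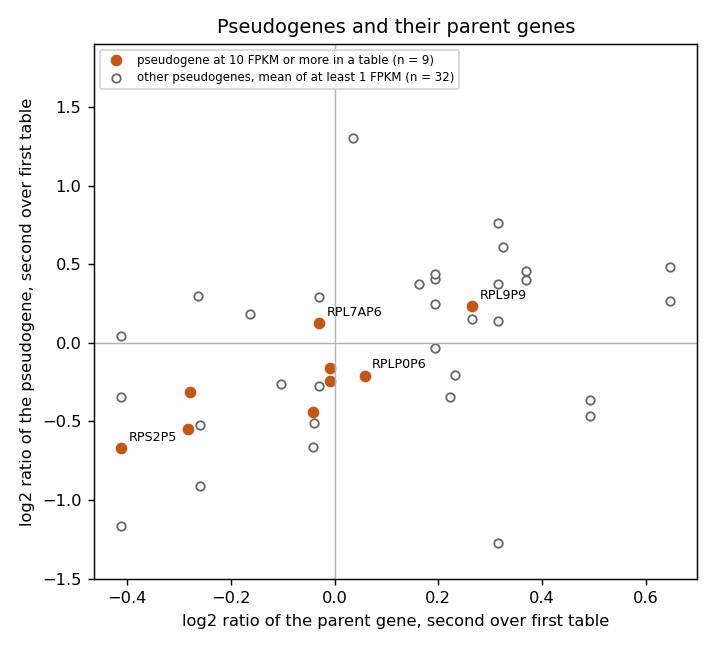
Log2 ratio (second over first table) of 41 pseudogenes against that of their parent ribosomal protein genes; filled points are the 9 pseudogenes that reached 10 FPKM in a table. Of the 41 points, 29 have the same sign as their parent, and RPS2P5 and RPL9P9 are the most abundant.

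Other genes of the ribosome pathway were set beside the members. Of 25 other mRNAs known to carry a TOP tract, 19 were higher and 6 lower in the second table, with a median log2 ratio of 0.20, where 57.5% of all genes were higher. Of 16 with an entry in the RefSeq table, 15 had the tract defined above. EEF1A1, the factor that brings aminoacyl-tRNA to the ribosome, was listed at 1475 FPKM in the second table and 910 FPKM in the first, a log2 ratio of 0.70. The initiation factor subunits EIF3H (38.6 FPKM in the second and 22.1 FPKM in the first, 0.78) and EIF3A (11.6 FPKM in the second and 6.72 FPKM in the first, 0.70) and the nascent chain factor NACA (56.5 FPKM in the second and 36.6 FPKM in the first, 0.61) were also past 1.5-fold. EEF2, the translocase, was listed at 1206 FPKM in the second and 1297 FPKM in the first (log2 ratio -0.11). Past 1.5-fold there were 4 higher and 0 lower of the 25, against 13.8% higher and 7.84% lower of all genes. This list includes FAU and RACK1, and shares NPM1 with the assembly factors and NAP1L1 with the chaperones. The starts of EEF1A1, RACK1 and FAU are shown in the same form as those above.
EEF1A1, chr6:73521013-73521042, minus strand: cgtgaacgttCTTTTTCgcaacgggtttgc
RACK1, chr5:181243887-181243916, minus strand: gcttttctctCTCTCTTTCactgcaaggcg
FAU, chr11:65122115-65122144, minus strand: tcgcttcttcCTCTTTCTCgactccatctt

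Most factors that build ribosomes were higher in the second table. Of 72 identifiers of ribosome assembly factors, 58 were higher and 14 lower, with a median log2 ratio of 0.38, where 57.5% of all genes were higher with a median of 0.09. At 1.5-fold, 20 were higher and 2 lower, against 13.8% higher and 7.84% lower of all genes. NVL, an ATPase of large subunit assembly, was listed at 6.88 FPKM in the second table and 2.26 FPKM in the first, a log2 ratio of 1.27. RIOK3 (11.5 FPKM in the second and 4.40 FPKM in the first), LTV1 (3.46 FPKM in the second and 0.969 FPKM in the first) and WDR3 (20.7 FPKM in the second and 9.63 FPKM in the first), all factors of the small subunit, had log2 ratios of 1.21, 1.18 and 1.03. The abundant factors differed less: NPM1, which shuttles ribosomal proteins, had 218 FPKM in the second and 167 FPKM in the first, and FBL, the methyltransferase of box C/D snoRNPs, 178 FPKM in the second and 201 FPKM in the first.

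Of 15 importins and dedicated chaperones that carry ribosomal proteins, 14 were higher in the second table, with a median log2 ratio of 0.37, where 57.5% of all genes were higher. At 1.5-fold, 5 were higher and 0 lower, against 13.8% higher and 7.84% lower of all genes. Those past 1.5-fold included BCCIP (7.18 FPKM in the second and 3.98 FPKM in the first, 0.71), IPO5 (50.5 FPKM in the second and 31.5 FPKM in the first, 0.67), IPO9 (15.0 FPKM in the second and 9.11 FPKM in the first, 0.66) and TNPO1 (38.3 FPKM in the second and 24.0 FPKM in the first, 0.66). GRWD1, a nucleolar chaperone that escorts a large subunit protein, was the one listed lower, at 20.1 FPKM in the second and 21.0 FPKM in the first.

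Among 15 regulators of ribosomal protein synthesis and sensors of free ribosomal proteins, 8 were higher and 7 lower, with a median of 0.06, and past 1.5-fold 2 were higher and 2 lower, where 13.8% of all genes were higher and 7.84% lower. LARP1, which binds the TOP tract, was listed at 68.7 FPKM in the second table and 60.4 FPKM in the first, a log2 ratio of 0.18. The translational repressor EIF4EBP2 had 17.6 FPKM in the second and 8.28 FPKM in the first (1.00) and LARP4B 13.9 FPKM in the second and 8.03 FPKM in the first (0.73). The S6 kinase RPS6KB1 had 1.53 FPKM in the second and 2.89 FPKM in the first (-0.62).

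Mitochondrial ribosomal proteins build the separate ribosome of that organelle from nuclear genes. Of 78, 51 were higher and 27 lower in the second table, or 65.4% higher where all genes had 57.5%, with a median log2 ratio of 0.11. Past 1.5-fold, 15 were higher and 2 lower, beside 13.8% higher and 7.84% lower of all genes, and the interquartile range ran from -0.08 to 0.42. MRPL13 (16.1 FPKM in the second and 6.58 FPKM in the first, 1.18), MRPL32 (19.4 FPKM in the second and 8.59 FPKM in the first, 1.09) and MRPS10 (13.4 FPKM in the second and 6.05 FPKM in the first, 1.04) stood highest. Their median level was 32.9 FPKM in the second table and 28.1 FPKM in the first, below the cytosolic medians. Whether any of these lists differed from the members beyond the error of the values could not be tested with 1 value per table.

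**Figure D4:**
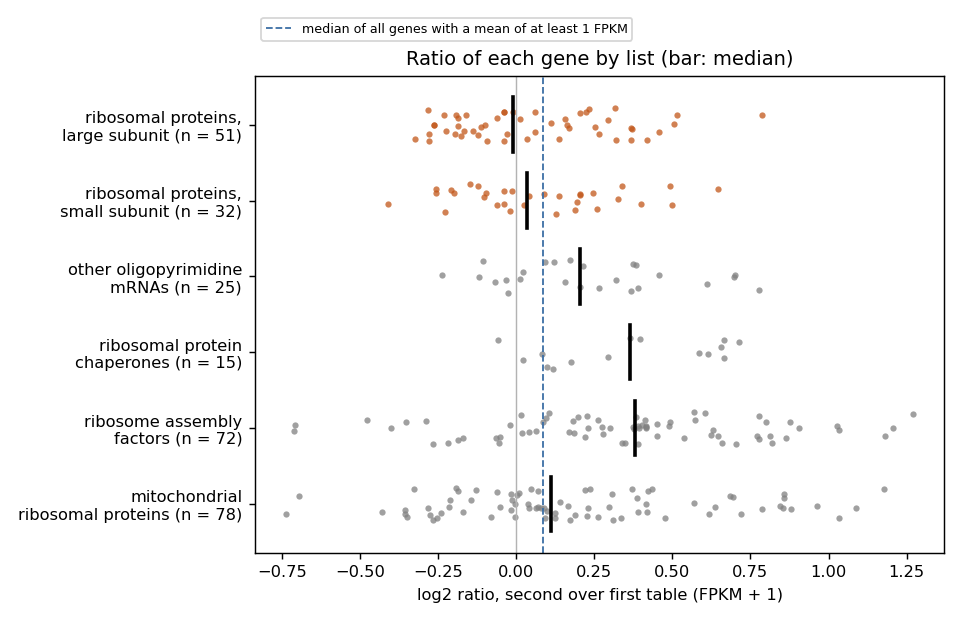
Log2 ratio (second over first table) of each gene with a mean of at least 1 FPKM in 6 lists, with black bars at list medians and a dashed line at the median of all such genes (0.09). The medians are -0.01 and 0.03 for the cytosolic ribosomal proteins by subunit, 0.20 for other TOP mRNAs, 0.37 for chaperones, 0.38 for assembly factors and 0.11 for mitochondrial ribosomal proteins.

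The 83 genes were scattered over 21 chromosomes, with 12 on chromosome 19 and no more than 9 on any other. On chromosome 19, 3 were higher and 9 lower in the second table, with a median log2 ratio of -0.19. On the other chromosomes, 39 of 71 were higher, with a median of 0.06. All genes with a mean of at least 1 FPKM showed a like offset, with medians of -0.13 over 767 genes on chromosome 19 and 0.10 over 10649 genes elsewhere. Of these genes, 35.7% were higher on chromosome 19 and 59.0% elsewhere. The chromosome was singled out after the values had been seen.

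The ratio varied with local gene density. With density counted as the listed genes starting within 1 Mb, members in the sparsest surroundings had 19 of 28 higher and a median log2 ratio of 0.20, and as many members in the densest had 11 of 28 higher and a median of -0.04. The 27 members between them had 12 higher and a median of -0.03, close to that of the densest. Of the 11416 genes, 57.5% were higher, and of those with a mean of at least 100 FPKM, 42.0% were. Levels differed too: the median in the second table was 237 FPKM for the sparsest, 526 FPKM for the middle and 536 FPKM for the densest. In the first it was 209, 450 and 549 FPKM. The sparsest 28 had 4 to 15 listed genes nearby and the densest 28 had 41 to 103. Members tied at 15 fell on both sides of the lower cut. Across the 83 members, the Spearman correlation was -0.33, and across the 11416 genes it was -0.30. Without chromosome 19 it was -0.23 over 71 members. Between the ratio and the log2 mean level, it was -0.23 over the 83 members. Neighbours can share surroundings, so these points are not independent. The part of density, level, base composition or library in the result was not tested.

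**Figure D5:**
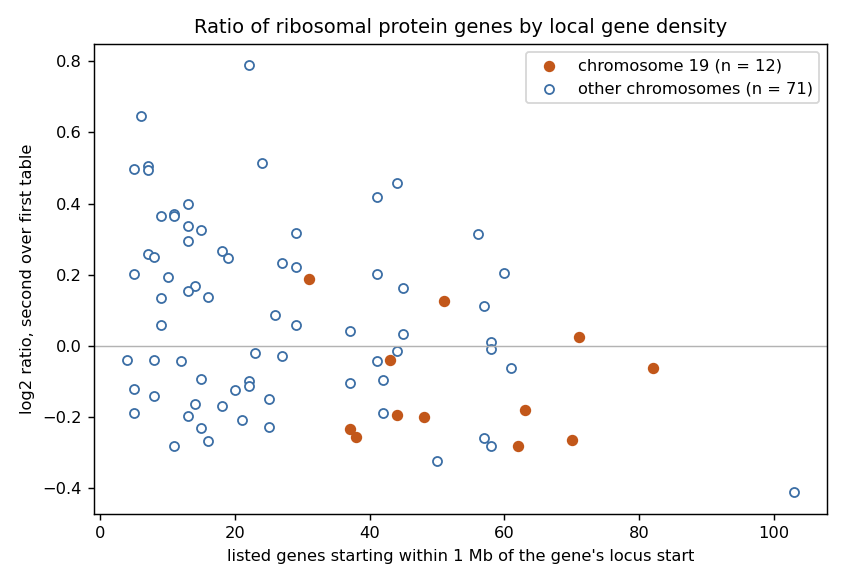
Log2 ratio (second over first table) of the 83 ribosomal protein genes against how many listed genes start within 1 Mb of each; filled points are the 12 genes on chromosome 19. The highest point, RPL4 at 0.79, has 22 neighbours, and RPS2, the point with 103 neighbours, lies lowest at -0.41.

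Of the 6 pairs of members that follow each other within 1 Mb on a chromosome, 4 had ratios on the same side of 0. RPL23 and RPL19, 346 kb apart on chromosome 17, differed most, at -0.19 and 0.46. RPS26 and RPL41 on chromosome 12 were both lower, at -0.26 and -0.06.

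Members with and without the TOP tract overlapped. The 47 with the tract at an annotated start had a median log2 ratio of -0.02, with 21 higher and 26 lower. The 20 without it had a median of 0.18, with 12 higher and 8 lower, and ran from -0.26 to 0.79. Of all genes with a mean of at least 1 FPKM, 57.5% were higher. Among the 593 genes with a mean of at least 100 FPKM, members included, it was 42.0%. The 44 members that shared their locus with no other identifier had a median of 0.02, and the 39 that shared one had a median of -0.01.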

How the data were processed

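The authors deposited 2 tables of FPKM per gene, with an Ensembl identifier, a gene name and a locus, per the file headers. Neither the tool behind the FPKM values nor the samples in each table were stated in those headers or the labels. Listed without roles in the submitters' processing notes are hg38, MACS 1.4.2, BWA 0.7.13 and cutadapt 1.12. Locus starts, counted from 0 in the files, were raised by 1.

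Members were found by gene name. A pseudocount of 1 FPKM was added to both values before the log2 ratio of second over first was taken, so differences of low genes are understated. All 83 members passed the filter of a mean of at least 1 FPKM. With 1 value per table no test was run: 1.5-fold and 2-fold serve as limits. Ratios and counts were checked on simulated tables. Members and lists were chosen with earlier results of these data known. Named genes were the 5 highest and lowest by level and by ratio, those past 1.5-fold, paralog pairs, role groups and up to 4 genes per other list. Further genes were named as examples after their values were seen. Gene density, neighbours, pseudogenes and chromosome 19 were examined after the data had been seen. TOP tracts were read from RefSeq starts (GRCh38.p14) matched by symbol. Python 3.11.15, pandas 2.3.3, numpy 2.4.6, scipy 1.17.1 and matplotlib 3.10.9 were used. Some genes that the naming rule or the lists hold are counted but not reported here one by one.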

Additional observations from a re-analysis of the deposited data

How the results depend on the processing

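No paired analysis was possible because neither table names a replicate, and the planned replicate block and leaving out of replicates were not run for the same reason. The depth behind each FPKM value is unknown, so a counting error could not be given. The 42 members higher and 41 lower in the second table became 23 and 21 among genes sharing no locus with another identifier, where only 44 members remain by construction. The 2 members at least 1.5-fold higher became 0 there, since RPL4 and RPS3A both share a locus. They became 1 after subtracting 0.09, the all-gene median, where RPS3A had 0.56. Under that centring 36 members were higher and 47 lower, 6 changed side of 0, and the median over the members became -0.08. In the other settings run (a pseudocount of 0.1, no level filter, a mean of at least 10 FPKM, summed identifiers, and, added after seeing the data, pseudogenes summed with parents and no variant paralogs) the members' median stayed between 0.01 and 0.02 and no member changed side. The large subunit median, -0.01, was 0.00025 at a mean of at least 10 FPKM, a change of sign at a value close to 0.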

Other observations

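Readthrough genes that join a member to its neighbour were listed apart from the member. RPL17-C18orf32 had 25.7 FPKM in the second table and 12.2 FPKM in the first, a log2 ratio of 1.01, while RPL17 itself had 204 FPKM in the second and 186 FPKM in the first, a log2 ratio of 0.14. RPS10-NUDT3 had 9.55 FPKM in the second and 7.08 FPKM in the first, beside 966 FPKM in the second and 1037 FPKM in the first for RPS10 and 8.0 FPKM in the second and 5.10 FPKM in the first for NUDT3. RPL36A-HNRNPH2 had 0.641 FPKM in the second and 2.13 FPKM in the first. Each shares exons with its member, so how fragments were divided upstream enters these values, and this was not tested.

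RPS29, a zinc-binding protein of the small subunit, lies in a merged locus with RN7SL1, the RNA of the signal recognition particle. RPS29 was listed at 196 FPKM in the second table and 218 FPKM in the first. The RN7SL1 identifier in both tables was listed at 50854 FPKM in the second and 70077 FPKM in the first, and another identifier of that name had 17377 FPKM in the second table and no entry in the first.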
